A study of Rattus norvegicus with 6 samples.

Results

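The set described here is 10 genes of the endoplasmic reticulum (ER) stress response and the integrated stress response, namely Trib3, Ddit3, Atf4, Hspa5, Xbp1, Asns, Herpud1, Dnajb9, Hsp90b1 and Calr. They were found by gene name among the non-control spots of a rat expression array, and are 10 of the 26456 gene names on it. Each had 1 probe, and each was well above background on all 6 arrays, so all 10 were tested. The tissue was left ventricle of male rats, with 1 array per sample and 3 arrays per strain. OLETF, a rat strain that lacks the cholecystokinin A receptor, overeats and develops type 2 diabetes, was sampled at 27, 28 and 27 weeks of age. LETO, its healthy control strain, was sampled at 27, 28 and 28 weeks. Strain and diabetes cannot be told apart in this design, and the labels name no treatment. The p-values cover only the spread among 3 samples per strain, which the submitters call independent experiments.

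ER stress is sensed by the membrane proteins IRE1, ATF6 and PERK. IRE1 splices Xbp1 mRNA into the message of an active transcription factor, ATF6 is cut to release another, and PERK phosphorylates the translation factor eIF2α. Phosphorylated eIF2α lowers general translation while favouring that of Atf4, and kinases sensing amino acid lack, haem lack or double-stranded RNA act on the same site, which is the integrated stress response. In the heart this response is known from ischaemia, pressure overload and diabetes, where ER chaperones mark its protective side and CHOP, the product of Ddit3, its pro-apoptotic side.

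Levels are given as log2 of the background-subtracted spot signal minus the log2 of the array's 75th percentile over probes, so that 0 is the signal of a probe at that percentile. Differences are OLETF minus LETO on this log2 scale, and levels of different genes cannot be compared, because each has its own probe. Between 75.7% and 79.8% of spots were well above background on the OLETF arrays and between 75.5% and 79.4% on the LETO arrays, no spot was saturated, and the small number of arrays limits the precision. Slide 1 held OLETF 1 with all 3 LETO arrays, and slide 2 held the other OLETF arrays, so differences are also given within slide 1, where it rests on 1 OLETF array. Markers of ventricular cardiomyocytes were well above background for all 10 of 10 genes, and their summed signal, relative to the 75th percentile, was 2694 to 3257 in OLETF and 2912 to 3249 in LETO. All 10 of these markers had negative differences, with a median of −0.11 and of −0.15 within slide 1, and 0 were called (limma; 0 at an unadjusted p below 0.05). Their part in the results was not tested. The tissue is a mixture of cells, and fewer cells of a type cannot be told apart from less RNA per cell.

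Of the 10 genes, 1 was higher and 0 were lower in OLETF at an adjusted p below 0.05 (limma, Benjamini-Hochberg adjustment over 18814 genes). Over all genes tested, 1.5% were called higher and 1.05% lower, or 2.55% in either direction. The called gene was Trib3, at 1.68-fold. The lowest OLETF level lay above the highest LETO level for 5 of the 10 genes (Trib3, Hspa5, Hsp90b1, Calr and Dnajb9), against 8.92% of all genes, and the reverse held for Atf4 alone, against 8.44% of all genes. At an unadjusted p below 0.05 there were 4 genes higher and 2 lower, where all genes gave 6.21% in each direction. The median difference of the 10 genes was 0.20, against −0.0084 over all genes, and 8 of 10 differences were positive, against 47.6% of all genes. The genes were chosen with results of these arrays known, so the counts describe them and are not a test.

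**Figure D1:**
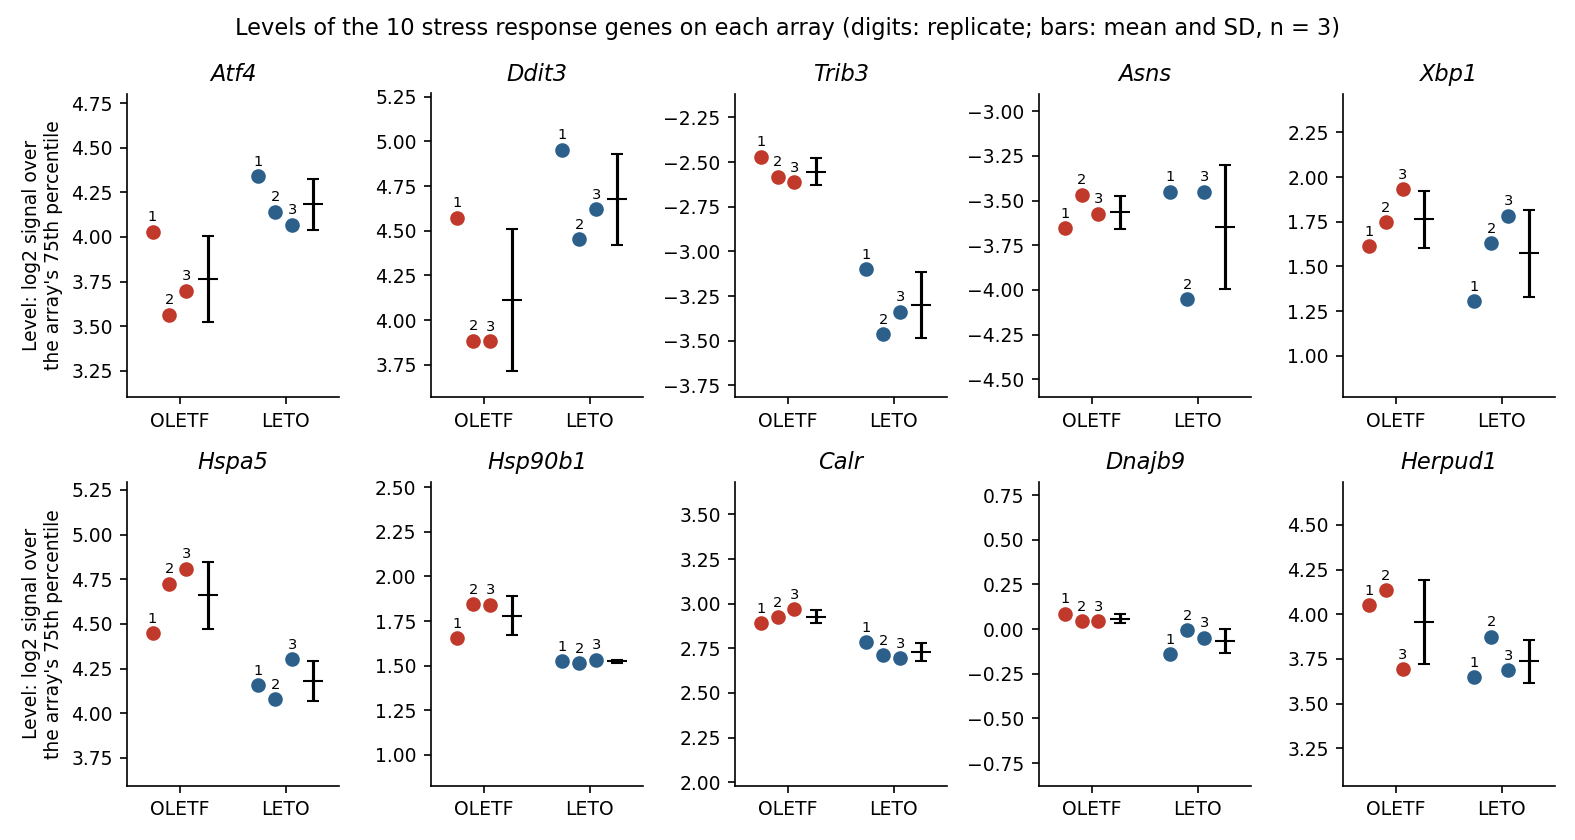
Log2 level (log2 signal over the array's 75th percentile) of each of the 10 genes on the 3 OLETF arrays (left, red) and the 3 LETO arrays (right, blue). Points are arrays with their replicate number, and bars give mean and SD (n = 3 each). The OLETF points of Trib3 lie between −2.61 and −2.47, all above the LETO points at −3.46 to −3.10.

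Atf4 encodes the transcription factor whose translation is favoured by eIF2α phosphorylation. Its level was 4.03, 3.57 and 3.70 in OLETF 1 to 3, against 4.34, 4.14 and 4.07 in LETO 1 to 3. All OLETF arrays were below all LETO arrays, and OLETF 1 lay nearest to them. The mean was 3.76 ± 0.24 in OLETF and 4.18 ± 0.14 in LETO (SD, n = 3 each), a difference of −0.42 ± 0.14 (SE). The difference did not pass the test (limma adjusted p = 0.264) and was −0.15 within slide 1. Atf4 is the only gene of the set printed repeatedly on the array, in 10 spots, and the SD between these spots was 0.039 to 0.055 on any array, smaller than the SD between rats of either strain. The 60-base Atf4 probe, at chr7:118538840-118538899 of the rn4 build on the plus strand, is shown because it measures the transcript and not the translation by which ATF4 is chiefly controlled.
Atf4 probe: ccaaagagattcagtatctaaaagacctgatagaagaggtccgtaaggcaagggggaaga

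Ddit3 encodes CHOP, a transcription factor induced by ATF4 and tied to stress-related cell death. Its level was 4.57, 3.88 and 3.88 in OLETF 1 to 3, against 4.95, 4.45 and 4.62 in LETO 1 to 3. OLETF 1 was above LETO 2, so the groups overlapped, while OLETF 2 and OLETF 3 were below every LETO array. The mean was 4.11 ± 0.40 in OLETF and 4.68 ± 0.26 in LETO (SD, n = 3 each). The difference of −0.56 ± 0.22 (SE) had a 95% interval of −1.08 to −0.04 before adjustment for multiple testing and did not pass the test (limma adjusted p = 0.348). Within slide 1 it was −0.10.

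Trib3 encodes a pseudokinase that is induced by ATF4 and CHOP and binds the kinase AKT, for which it has been studied in insulin resistance. Its level was −2.47, −2.58 and −2.61 in OLETF 1 to 3, against −3.10, −3.46 and −3.34 in LETO 1 to 3. All 3 OLETF arrays were above all LETO arrays, with a gap wider than the range within either strain. On the linear scale before scaling, the probe gave 221.8, 148.2 and 200.7 intensity units in OLETF 1 to 3, against 123.1, 86.4 and 104.5 in LETO 1 to 3. The mean log2 level was −2.55 ± 0.08 in OLETF and −3.30 ± 0.18 in LETO (SD, n = 3 each). Trib3 rose by 0.75 ± 0.11 (SE), with a 95% interval of 0.48 to 1.02 (limma adjusted p = 0.0194). Within slide 1 the difference was 0.83, higher than over all arrays, although the test with slide as a block did not call it (adjusted p = 0.173, the highest of 19 alternatives, which ranged down to 0.00159). The call was also lost without any 1 of the 3 OLETF arrays, without LETO 2 or without LETO 3, with adjusted p between 0.0659 and 0.0974 and a difference between 0.67 and 0.78, and it was kept without LETO 1, where the difference was 0.85 (adjusted p = 0.0111). It was lost as well, with the difference unchanged, when dim probes were not filtered out (adjusted p = 0.0769). With normexp background correction and quantile normalization the call was kept (limma adjusted p = 0.00944), but the difference was 0.51, the lowest of the 19 alternatives. The Trib3 probe, at chr3:142664936-142664995 of rn4 on the minus strand, is shown because the only call of the set rests on it.
Trib3 probe: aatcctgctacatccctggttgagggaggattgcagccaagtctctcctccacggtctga

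Asns encodes asparagine synthetase, a classical ATF4 target of the amino acid response. Its level was −3.65, −3.47 and −3.57 in OLETF 1 to 3, against −3.45, −4.05 and −3.45 in LETO 1 to 3. LETO 2 was the lowest array and the other LETO arrays were the highest, so the groups overlapped fully. The difference was 0.09 ± 0.17 (SE), with a 95% interval of −0.32 to 0.50 (limma adjusted p = 0.948). It turned to −0.0035 within slide 1 and to −0.12 without LETO 2. Of the 3 genes described here as ATF4 targets only Trib3 was called, so whether they share a direction is not settled. Ddit3 had a negative difference that did not pass the test, Trib3 rose, and Asns had a difference near 0.

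Xbp1 encodes the transcription factor that is activated when IRE1 splices its mRNA. Its level was 1.61, 1.75 and 1.93 in OLETF 1 to 3, against 1.30, 1.63 and 1.78 in LETO 1 to 3. The groups overlapped, with LETO 1 the lowest array and OLETF 3 the highest. The difference was 0.19 ± 0.15 (SE), with a 95% interval of −0.16 to 0.54 (limma adjusted p = 0.759), and 0.04 within slide 1. It was 0.06 without LETO 1, 0.11 without OLETF 3 and 0.30 without LETO 3. The 1 probe does not tell the spliced from the unspliced form, so the activity of IRE1 is not read by it.

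Hspa5 encodes BiP, the main HSP70 chaperone of the ER lumen, which also holds the stress sensors inactive. Its level was 4.45, 4.72 and 4.81 in OLETF 1 to 3, against 4.16, 4.08 and 4.30 in LETO 1 to 3. All OLETF arrays were above all LETO arrays, and OLETF 1 was the lowest of the OLETF arrays. The mean was 4.66 ± 0.19 in OLETF and 4.18 ± 0.11 in LETO (SD, n = 3 each), or 1.40-fold. The difference of 0.48 ± 0.12 (SE), with a 95% interval of 0.19 to 0.77, did not pass the test (limma adjusted p = 0.117), and it was 0.27 within slide 1.

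Hsp90b1 encodes GRP94, the HSP90 chaperone of the ER. Its level was 1.65, 1.84 and 1.84 in OLETF 1 to 3, against 1.52, 1.51 and 1.53 in LETO 1 to 3. The LETO arrays lay close together, and all OLETF arrays were above them. The difference was 0.26 ± 0.09 (SE), with a 95% interval of 0.05 to 0.47, and did not pass the test (limma adjusted p = 0.276). Within slide 1 it was 0.13.

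Calr encodes calreticulin, a calcium-binding lectin chaperone that folds glycoproteins and sets the calcium store of the ER. Its level was 2.89, 2.92 and 2.97 in OLETF 1 to 3, against 2.78, 2.71 and 2.69 in LETO 1 to 3. Again all OLETF arrays were above all LETO arrays, by a narrow margin. The difference was 0.20 ± 0.08 (SE), with a 95% interval of 0.01 to 0.39 (limma adjusted p = 0.370), and 0.16 within slide 1.

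Dnajb9 encodes ERdj4, a co-chaperone of BiP induced through XBP1. Its level was 0.09, 0.04 and 0.04 in OLETF 1 to 3, against −0.14, −0.01 and −0.05 in LETO 1 to 3. The groups did not overlap, but the difference was small, 0.12 ± 0.08 (SE, limma adjusted p = 0.682), and 0.15 within slide 1. Herpud1 encodes a membrane protein of the complex that removes misfolded proteins from the ER for degradation. Its level was 4.05, 4.13 and 3.69 in OLETF 1 to 3, against 3.65, 3.88 and 3.69 in LETO 1 to 3. OLETF 3 lay among the LETO arrays, and the difference was 0.22 ± 0.14 (SE, limma adjusted p = 0.644), with 0.31 within slide 1. It was 0.13 without OLETF 2 and 0.36 without OLETF 3.

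**Figure D2:**
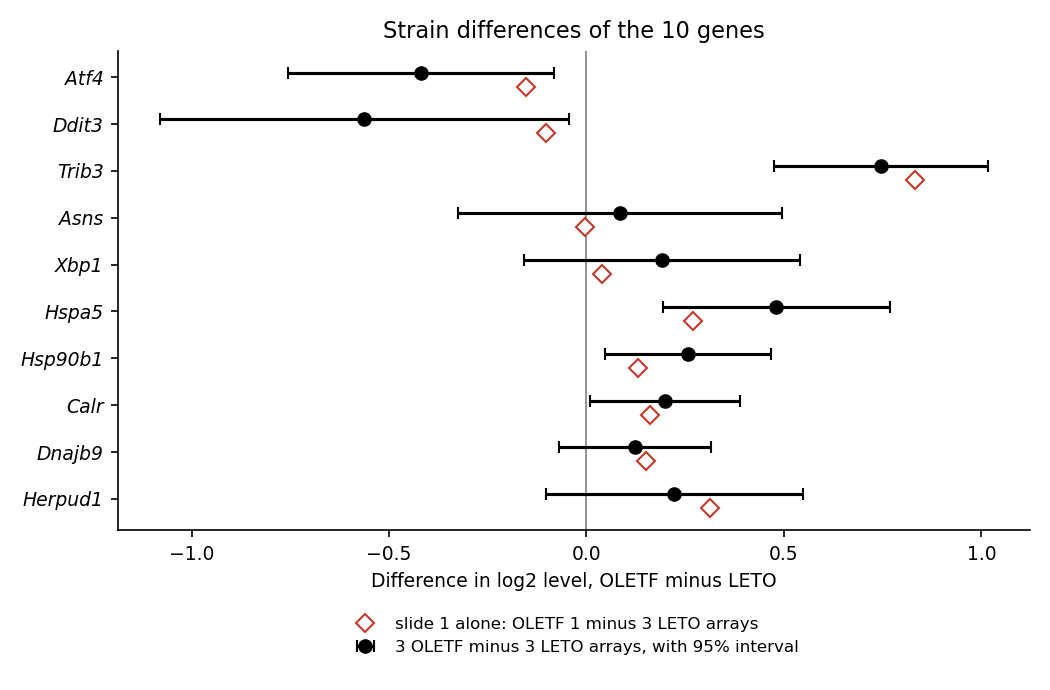
Difference in log2 level, OLETF minus LETO, for the 10 genes. Filled circles with bars are the differences over 3 OLETF and 3 LETO arrays with unadjusted 95% intervals, and open diamonds are the values within slide 1, where OLETF 1 is set against the 3 LETO arrays. Trib3 lies at 0.75 and at 0.83 within slide 1, whereas Ddit3 and Atf4 lie at −0.56 and −0.42 and at −0.10 and −0.15 within slide 1.

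For 6 of the 10 genes the whole 95% interval lay within a 1.5-fold difference in either direction. Between the estimates over all arrays and within slide 1, Trib3, Asns, Calr, Dnajb9 and Herpud1 moved by less than 0.10, and Hspa5, Hsp90b1, Xbp1, Ddit3 and Atf4 moved towards 0. Under array quality weights, which gave LETO 1 the lowest weight of 0.205, Hspa5 (adjusted p = 0.0441) and Calr (adjusted p = 0.0479) were called higher beside Trib3. Over 19 alternatives the adjusted p ranged from 0.0441 to 0.837 for Hspa5 and from 0.0479 to 1.00 for Calr.

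Promoters of ER chaperone genes are known to carry the ER stress response element (ERSE), to which ATF6 and XBP1 bind together with NF-Y. The promoters of all 10 genes were matched by symbol in RefSeq (build GRCr8, 250 bases before to 50 after the start). Both strands were searched for the ERSE, spelled as CCAAT, 9 bases of any kind and CCACG. It was found in 0.0657% of all 33469 promoters and in 3 of 21 matched from the list of ER chaperones and oxidoreductases described below. Since the element is known from ER chaperone genes, its count in the set describes the promoters and is not a test. In the set it was found in 4 of the 10 promoters. These were the promoters of Hspa5 (chr3:38452958-38453006, plus strand), Xbp1 (chr14:84604543-84604591, plus strand), Hsp90b1 (chr7:23012436-23012484 and chr7:23012332-23012380, minus strand) and Calr (chr19:40213120-40213168, plus strand). The stretches are shown in the direction of the gene, because these are the genes of the set that hold the element in this spelling. Capitals mark both ends of the ERSE, which read CGTGG and ATTGG where the match is on the opposite strand.
Hspa5: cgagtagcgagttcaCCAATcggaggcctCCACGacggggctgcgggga
Xbp1: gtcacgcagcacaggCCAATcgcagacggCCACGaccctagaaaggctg
Hsp90b1, far: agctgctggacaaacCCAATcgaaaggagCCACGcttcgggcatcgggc
Hsp90b1, near: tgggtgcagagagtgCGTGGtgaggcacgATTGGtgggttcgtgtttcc
Calr: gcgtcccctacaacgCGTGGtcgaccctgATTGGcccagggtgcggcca

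The parts of the ERSE alone were common, since CCAAT stood in 37.5% of all promoters and in 7 of the 10, and CCACG in 31.6% and in 9 of the 10. In the Herpud1 promoter ATTGG began 124 bases before the start and CCACG 118 bases before it, on the strand of the gene. Pairs of these parts at spacings other than 9 bases were not searched. Over the array, 15 genes with an ERSE in this window were tested, and 9 had a positive difference, with a median of 0.09 and of 0.04 within slide 1. Without the 4 genes of the set, 11 remained, with 5 positive and 6 negative differences and a median of −0.00079. Chosen after their values were seen, the 4 of these 11 that are also in the ER pathway lists described below had positive differences, none of them called. These were 0.06 for Canx, 0.09 for Creld2, 0.35 for Derl3 and 0.12 for Dnajc3, with −0.12 for Creld2 within slide 1. Of the other 7, 1 was positive and 6 were negative. The largest negative difference was −0.52 for Zfand2a (limma adjusted p = 0.082), and −0.41 within slide 1. It was not called, but all its OLETF arrays were below all its LETO arrays.

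The C/EBP-ATF response element, spelled as TGATGNAA, binds ATF4 and was found in 3.98% of all promoters and in 2 of the 10. These were the promoters of Trib3 (chr3:161275534-161275569, minus strand) and Herpud1 (chr19:10614869-10614906, minus strand). TTGCATCA, which is this element with C at its free base read on the opposite strand, stood in 0.795% of all promoters and in that of Herpud1. It is the same match there, and not a further one. Both stretches are shown because Trib3 is the called gene and both matches lie on the opposite strand. Capitals mark the fixed letters of the element as they read on the strand of the gene.
Trib3: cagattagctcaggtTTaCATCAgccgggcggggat
Herpud1: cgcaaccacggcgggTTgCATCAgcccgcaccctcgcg

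The core of the unfolded protein response element, TGACGTGG, stood in 0.595% of all promoters and in 0 of the 10, and the cyclic AMP response element, TGACGTCA, in 1.83% and in 0 of the 10. These counts describe letters in a window of fixed length and not binding.

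The wider pathway was described by 6 lists that hold none of the 10 genes. Of 116 listed genes 105 were tested, of which 0 were called higher and 1 lower (limma), or 0.952% lower, against 1.05% of all genes. At an unadjusted p below 0.05 there were 6 higher and 6 lower, where all genes gave 6.21% in each direction. There were 60 positive and 45 negative differences, against 47.6% positive over all genes, with a median of 0.02 and of 0.01 within slide 1. All OLETF arrays were above all LETO arrays for 8 of the 105 genes and below for 10, against 8.92% and 8.44% of all genes. In the order of the lists below, there were 1, 0, 2, 4, 0 and 1 above and 4, 2, 2, 2, 0 and 0 below. These shares over all genes apply to each list.

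Among 12 sensors and kinases, 0 were called in either direction (limma; 1 higher and 3 lower at an unadjusted p below 0.05), and the median difference was 0.0085. Eif2ak2, the kinase PKR activated by double-stranded RNA, had a difference of 0.28 (adjusted p = 0.325), and 0.21 within slide 1. Eif2ak3, which encodes PERK, had −0.22 (adjusted p = 0.334), and −0.19 within slide 1. Ppp1r15a, which encodes GADD34, the inducible subunit that directs eIF2α dephosphorylation, was chosen after its values were seen. Its level was 2.48, 1.75 and 2.01 in OLETF 1 to 3, against 3.58, 2.53 and 2.56 in LETO 1 to 3. All OLETF arrays were below all LETO arrays, with OLETF 1 just below LETO 2. The difference was −0.81 ± 0.31 (SE, limma adjusted p = 0.348), −0.40 within slide 1 and −0.46 without LETO 1. With age as a covariate it was −1.06 and was called (adjusted p = 0.0483, the lowest of 19 alternatives, which ranged up to 1.00).

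Among 26 tested ATF4 and CHOP target genes, 0 were called higher and 1 lower (limma; 0 higher and 2 lower at an unadjusted p below 0.05). Of 26 differences 17 were negative and 9 positive, against 47.6% positive over all genes, with a median of −0.05. The called gene was Phgdh, which encodes the enzyme that commits glycolytic carbon to serine synthesis. It averaged −0.999 ± 0.146 in OLETF and −0.222 ± 0.211 in LETO (SD, n = 3 each), a log2 difference of −0.78, so it fell in OLETF (limma adjusted p = 0.0318). Within slide 1 its difference was −0.66. The call was lost with slide as a block, with the replicate block, with age as a covariate, with no filter on dim probes and without any 1 of the 6 arrays. Its direction was opposite to that of Trib3. Atf3, a transcription factor induced by ATF4 and by many acute stimuli, was chosen after its values were seen. Its level was 4.91, 2.46 and 3.45 in OLETF 1 to 3, against 5.39, 4.37 and 4.85 in LETO 1 to 3, and OLETF 1 lay above LETO 2 and LETO 3. The difference was −1.26 ± 0.58 (SE, limma adjusted p = 0.461), and 0.04 within slide 1. It was −1.91 without OLETF 1 and −0.69 without OLETF 2.

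Among 10 tested aminoacyl-tRNA synthetases, a group that ATF4 induces, 0 were called (limma; 0 at an unadjusted p below 0.05), and the median difference was 0.08. The smallest adjusted p belonged to Tars, the threonyl-tRNA synthetase, with a difference of 0.23 (adjusted p = 0.432; 0.26 within slide 1), and to Cars, the cysteinyl-tRNA synthetase, with −0.14 (adjusted p = 0.662; −0.13 within slide 1). Among 23 tested ER chaperones and oxidoreductases, 0 were called (limma; 3 higher and 1 lower at an unadjusted p below 0.05). Of the 23 differences 16 were positive, against 47.6% of all genes. Their median was 0.08, and 0.02 within slide 1. Sdf2l1, an ER protein that works with BiP, had a level of 1.39, 1.87 and 1.65 in OLETF 1 to 3, against 0.94, 0.93 and 1.21 in LETO 1 to 3. As for Hspa5, all OLETF arrays of Sdf2l1 were above all LETO arrays, and OLETF 1 was the lowest of the 3. Its difference was 0.61 ± 0.15 (SE, limma adjusted p = 0.0981), and 0.37 within slide 1. Trend and robust eBayes called Sdf2l1 (adjusted p = 0.0439), as did array weights (0.0488), and its adjusted p over 19 alternatives ranged from 0.0439 to 0.757. Hyou1, the ER exchange factor and chaperone GRP170, had a difference of 0.43 (adjusted p = 0.175), and 0.29 within slide 1.

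Among 14 tested genes of ER-associated degradation, the pathway of Herpud1, 0 were called (limma; 1 higher and 0 lower at an unadjusted p below 0.05), and the median difference was 0.02. Derl3, a membrane protein of the retrotranslocation channel, had 0.35 (adjusted p = 0.396), and 0.47 within slide 1. Ube2j1, an ER-bound ubiquitin-conjugating enzyme, had −0.18 (adjusted p = 0.655), and −0.11 within slide 1. Among 20 tested genes of ER translocation and early secretory transport, 0 were called (limma; 1 higher and 0 lower at an unadjusted p below 0.05), and the median difference was 0.01. Srprb, a subunit of the signal recognition particle receptor, had 0.20 (adjusted p = 0.400), and 0.10 within slide 1. Kdelr2, a receptor that returns escaped chaperones to the ER, had −0.16 (adjusted p = 0.646), and −0.21 within slide 1.

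**Figure D3:**
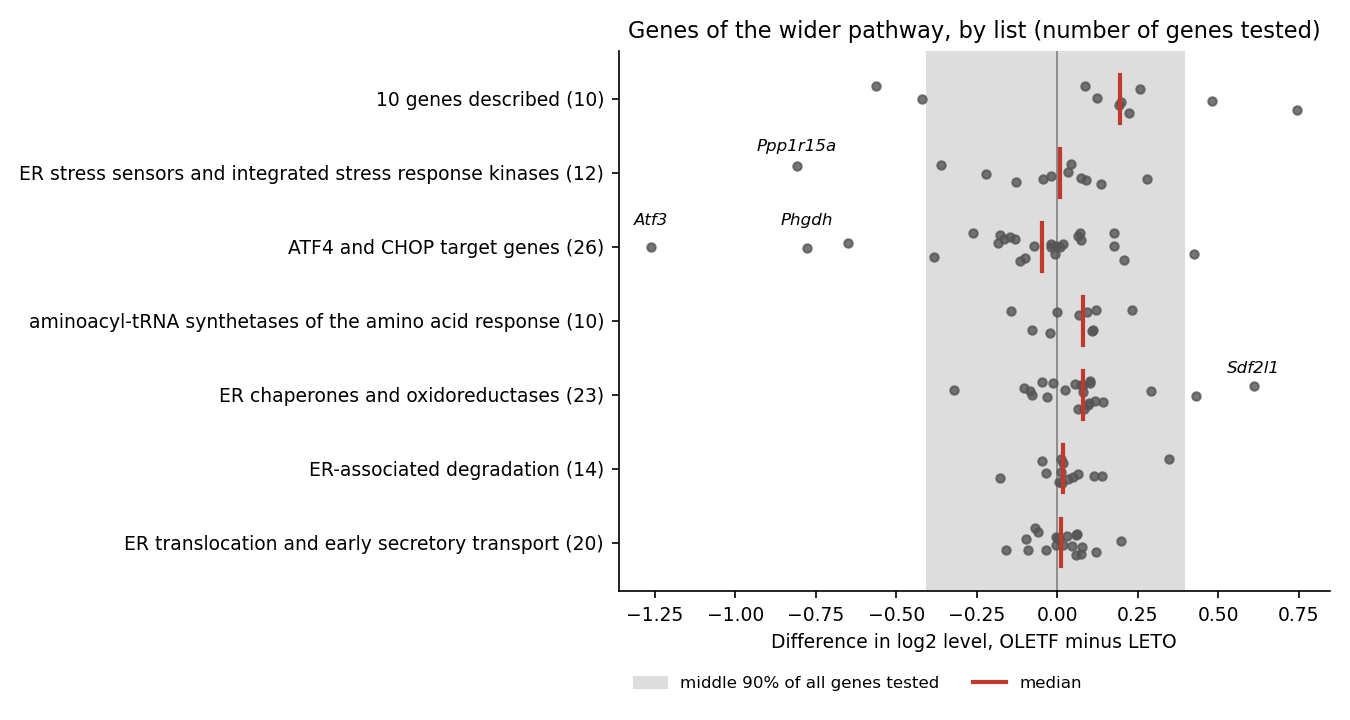
Difference in log2 level, OLETF minus LETO, for the 10 genes described and for the tested genes of 6 pathway lists, with each point a gene and each red line a median. The grey band, from −0.40 to 0.40, holds the middle 90% of all genes tested. The medians of the 6 lists lie between −0.05 and 0.08, and that of the 10 genes at 0.20.

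Ddit3, Atf4, Atf3 and Ppp1r15a had their lowest levels on OLETF 2 or OLETF 3 and their highest on LETO 1. A list of immediate early genes, whose transcription is quickly induced by stimulation, ischaemia or handling, was set beside them. All 9 tested genes of that list had negative differences, where 47.6% of all genes had positive ones. Of the 9, 0 were called in either direction (limma). At an unadjusted p below 0.05, 0 were higher and 7 lower, against 6.21% of all genes in each direction. The median was −1.26, against −0.42 within slide 1. All OLETF arrays were below all LETO arrays for 3 of the 9, against 8.44% of all genes. The summed signal of the 9 genes, relative to the 75th percentile, was 105, 43.7 and 58.7 in OLETF 1 to 3, against 222, 120 and 109 in LETO 1 to 3. Thus every OLETF sum was below every LETO sum, with OLETF 1 close to LETO 3. LETO 1 was the highest. The part of the immediate early genes in the Ddit3 and Atf4 values was not tested.

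**Figure D4:**
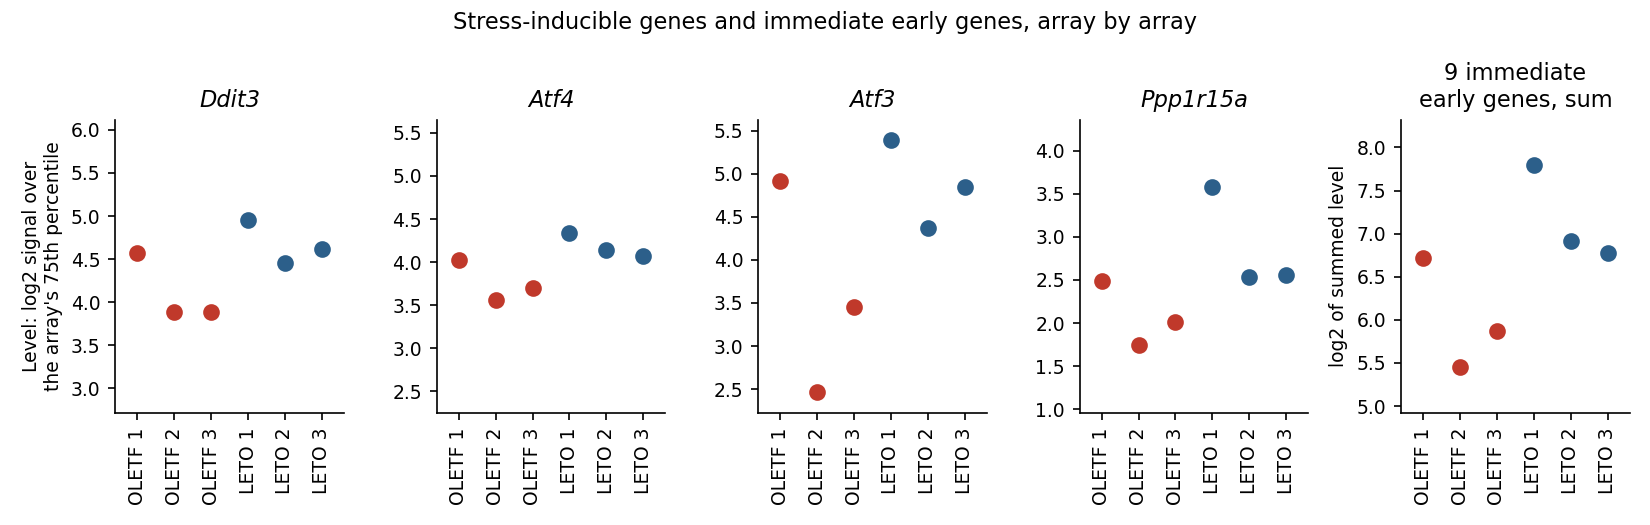
Log2 level of Ddit3, Atf4, Atf3 and Ppp1r15a, and log2 of the summed level of 9 immediate early genes, on the 3 OLETF arrays (left, red) and the 3 LETO arrays (right, blue), with each point an array. In all 5 panels LETO 1 is the highest array, and OLETF 1 is the highest of the OLETF arrays.

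Other cell types were read from marker lists. Fibroblast markers, which belong to secretory cells rich in ER, summed to 79.3 to 91.6 in OLETF and 62.9 to 83.1 in LETO, and 4 of 7 had positive differences, with 0 called (limma; 2 higher and 1 lower at an unadjusted p below 0.05). Macrophage markers summed to 14.4 to 18.2 in OLETF and 10.9 to 17.9 in LETO, and endothelial markers to 39.3 to 43.6 in OLETF and 38.0 to 42.2 in LETO. The ranges of these sums overlapped between the strains. So did those of the 4 atrial markers, at 131 to 150 in OLETF and 147 to 182 in LETO. Most of this sum came from Myl4. The log2 level of Myl7, an atrial marker, was 3.85, −0.72 and −0.57 in OLETF, against 2.96, 5.15 and 0.54 in LETO. That of Sln was 1.25, −4.05 and −1.77, against −4.04, 1.68 and −0.23. For both, OLETF 1 was the highest OLETF array, whereas for Nppa it was the lowest, at 2.28, 2.71 and 2.85 in OLETF 1 to 3. The part of atrial tissue in the values within slide 1, which rest on OLETF 1, was not tested. Of 5 adipocyte markers on the array only 1, Fabp4, passed the filter on dim probes, so adipocytes were read by 1 gene. Fabp4 was 9.44 to 10.3 in OLETF and 7.88 to 9.43 in LETO, narrowly without overlap and not called. Of the 2 tested red blood cell markers, Slc4a1 was called higher at 3.19 (limma adjusted p = 0.00589), and Hbb had −2.22, not called. The 3 plasma cell and B cell markers that were tested (Cd79a, Pou2af1 and Sdc1) summed to 0.377 to 0.396 in OLETF and 0.273 to 0.491 in LETO. The part of other cell types in the chaperone values was not tested.

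Genes whose pattern over the 6 arrays was most like that of the members with the widest spread were listed as a description. For Trib3 these were Capn2, a calpain protease subunit (Pearson r = 0.998), Pak1, a p21-activated kinase (r = 0.998), and Gas2l3, a cytoskeletal linker (r = 0.997). Gas2l3 was well above background on 3 OLETF arrays and 0 LETO arrays, so its LETO values, and the r that rests on them, are those of a probe not above background. The differences were 0.12 for Capn2 (limma adjusted p = 0.663; 0.14 within slide 1) and 0.37 for Pak1 (adjusted p = 0.0992; 0.43 within slide 1). For Ddit3 they were Rheb, a GTPase that activates mTORC1 (r = 0.993), Gng5, a G protein subunit (r = 0.991), and Ptp4a3, a phosphatase (r = 0.990). Their differences were −0.06 for Rheb, −0.08 for Gng5 and −0.14 for Ptp4a3, none of them called, and −0.015, −0.0070 and 0.0023 within slide 1 in the same order. The 6 arrays fall into strains and slides that are shared by all of these genes.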

How the data were processed

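RNA from left ventricle of 3 OLETF and 3 LETO rats was hybridised, labelled with Cy3, to Agilent Rat GE 4x44K v3 arrays, per the labels' protocols. Replicate numbers follow the titles, although 1 LETO source name (LETO 2) and the file numbers differ. Spot signals are linear intensity, background-subtracted in Feature Extraction, version 10.7.3.1 per the file headers and 9.1 per the submitters' processing notes. The deposited value table holds the same intensity divided by a constant per array (log2 correlation 1.00), neither logged nor centred, with column medians of 0.167, 0.171 and 0.171 in OLETF and 0.176, 0.168 and 0.172 in LETO.

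Control spots and 260 to 356 outlier spots per array were left out, which removed 17 of 30367 probes. Spots of a probe were averaged on the log2 scale, and the 75th percentile over probes (887 to 1228 intensity units) was subtracted. A probe was tested (21482 were) where all 3 arrays of a strain had it well above background, and the brightest stood for each gene name, giving 18814 genes. limma 3.58.1 in R 4.3.3 (lmFit, eBayes; files read with the data.table package at version 1.17.8) was run with Benjamini-Hochberg adjustment at 0.05. Promoters and figures were handled in Python 3.11.15 (pandas 2.3.3, numpy 2.4.6, matplotlib 3.10.9). The scripts were tested on simulated data. Probe positions are those of rn4 in the files, and promoters are RefSeq's of GRCr8.

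Members, lists and tests were chosen with earlier results of these data known. Named were all 10 members, up to 4 called genes of each list or else the 2 of smallest adjusted p, and the 3 genes of most similar pattern for each of the 2 members of largest SD. Equal replicate numbers were not taken to pair samples. Over all genes tested, the correlations between the deviations of same-numbered arrays were −0.09, −0.14 and −0.01. These correlations cannot exclude a pairing that shows only in some genes. Alternatives covered normalization, background correction with normexp at an offset of 50, the value table, the filter, probes per gene, eBayes settings, array weights, replicate block, age, slide and leaving out each array. The percentile over spots was an alternative chosen after seeing the data.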

Additional observations from a re-analysis of the deposited data

How the results depend on the processing

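Over 19 alternatives, 179 of 190 values of the 10 genes kept their direction and their side of the threshold. A gene without a call keeps both unless it reverses or is called, so the count says little about the size of differences. Ddit3 kept both in all 19, with differences from −0.79 to −0.10. Trib3 lost its call in 7, Hspa5 and Calr gained one under array weights, and Asns reversed in 2. Of 360 values of other named genes, 339 kept both. Of the 10 genes, 1 was called higher, against 0 with no filter on dim probes, 0 with slide as a block, 3 with array weights and 0 to 1 when 1 array was left out, and 0 were called lower in every alternative. Over all genes, 283 were called higher and 197 lower, against 149 and 91 with no filter, 878 and 826 with array weights, 52 and 53 with slide as a block, and 120 to 374 and 87 to 241 when 1 array was left out. With the replicate block, 166 were higher and 135 lower, and Trib3 kept its call (adjusted p = 0.0447), but equal numbers were not taken as pairs. Under this block the SE fell from 0.22 to 0.12 for Ddit3, from 0.31 to 0.14 for Ppp1r15a and from 0.58 to 0.27 for Atf3. None of these genes was called. The SE rose from 0.08 to 0.11 for Calr and from 0.13 to 0.16 for Phgdh. Genes called in the pathway lists were 0 higher and 1 lower, against 1 higher with trend and robust eBayes, 1 higher and 2 lower with array weights, and 0 lower with no filter, the replicate block, slide as a block and each array left out. With age as a covariate the count stayed at 1 lower, but the call passed to Ppp1r15a from Phgdh. Reversed values were −0.0035 with slide as a block and −0.12 without LETO 2 for Asns, whose values ranged from −0.12 to 0.19 when 1 array was left out, and 0.0023 for Ptp4a3 and 0.041 for Atf3 with slide as a block. With no filter, more genes were adjusted for, and the SE of Trib3 also rose, from 0.115 to 0.123. Fewer arrays entered when 1 was left out, and with slide as a block the difference rested on slide 1. The cause of the lost and gained calls was not tested for any of the alternatives. The counts over all genes with 1 array left out were highest without LETO 1 and lowest without OLETF 2 (higher) and OLETF 3 (lower). Signals were above background on all arrays for all 10 genes, and the number of arrays limits their precision. The values of dim genes also moved with the background correction. With normexp and quantile normalization, the difference was 0.51 against 0.75 for Trib3, and 0.02 against 0.09 for Asns.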
